A study of Mus musculus with 12 samples.

Results

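The 9 genes described here, Trp53, Cdkn1a, Mdm2, Ccng1, Trp53inp1, Bbc3, Bax, Sesn2 and Phlda3, are the gene that encodes p53 and 8 genes that p53 activates. They were chosen by symbol, as Trp53 and well-known targets of the protein it encodes, with earlier results of these data known. They make up 9 of the 23412 genes counted in each library. p53 is a transcription factor that is held at a low level by the ubiquitin ligase MDM2 and accumulates when DNA is damaged or cells are stressed. It then binds response elements near its target genes and raises their transcription, and the products of those genes halt the cell cycle, start apoptosis, repair damage or restrain p53 itself. Mouse embryonic stem cells (mESCs) carry abundant p53 and divide with a short G1 phase, and CRISPR editing, which cuts both DNA strands, can itself activate p53 and favour clones with a weaker response. The levels of these genes therefore address whether edited clones differ from their unedited parent in the RNA output of p53. RNA was measured here, and p53 protein was not.

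Bulk poly-A RNA-Seq was performed on v6.5 mESCs, a male mouse line kept in serum with LIF, in 4 genotypes with 3 replicates each, 12 libraries in all. WT cells were unedited. Hmgn1-/- and Hmgn2-/- cells carry homozygous frameshift mutations, made with CRISPR-Cas9, in the genes for the nucleosome-binding proteins HMGN1 and HMGN2, and each line grew from a single picked cell. Hmgn1-/-Hmgn2-/- cells (the double knockout) arose when Hmgn1 was edited in cells already lacking Hmgn2, so they carry the history of that clone, and genotype, clone and culture history cannot be told apart. The sources name the libraries as replicates of each line, so the tests measure the spread between replicates of 1 clone per genotype.

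Library totals ran from 17614490 through a median of 28524108 to 31448468 counts in WT, from 21059862 through 21993042 to 25953244 in Hmgn1-/-, from 17337908 through 25908890 to 26486535 in Hmgn2-/-, and from 22151507 through 26410485 to 31005479 in the double knockout. Levels below are CPM (counts scaled to a common library size) after trimmed mean of M values (TMM) scaling, given for replicates 1, 2 and 3 in that order or as the mean ± SD with n = 3. Of the 9 genes, the lowest count in any library was 308, for Cdkn1a, so every one of them passed the filter on low counts. The edited genes followed the labels. Hmgn1 measured 622 ± 35.1 CPM in WT, 140 ± 1.77 in Hmgn1-/-, 581 ± 51.4 in Hmgn2-/- and 21.0 ± 0.929 in the double knockout. Hmgn2 measured 126 ± 9.5 CPM in WT, 109 ± 3.84 in Hmgn1-/-, 53.1 ± 1.92 in Hmgn2-/- and 52.96 ± 2.16 in the double knockout.

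All 11 mESC markers examined were expressed in every library, led by Pou5f1, with a summed level between 5413 and 6121 CPM. Single markers differed in both directions by edgeR: Nanog was called lower than WT in Hmgn1-/-, Hmgn2-/- and the double knockout (log2 fold change -0.32, -0.50 and -0.45), Klf4 higher in all 3 (0.93, 0.69 and 0.74), Esrrb higher in Hmgn1-/- and the double knockout (0.47 and 0.28) and Utf1 higher in Hmgn1-/- (0.29). The 10 primitive endoderm markers, of which Lama1 had the highest mean over the 12 libraries and Col4a1 the highest in the double knockout, summed to 144, 184 and 188 CPM in WT, 480, 393 and 403 in Hmgn1-/-, 557, 500 and 358 in Hmgn2-/- and 1051, 1032 and 960 in the double knockout. Every knockout library was above every WT library, and 8, 8 and 10 of the 10 genes were called higher than WT in Hmgn1-/-, Hmgn2-/- and the double knockout; none of the 10 was at 0 in any library. The 8 fibroblast markers, led by Thy1, summed to 21.3, 17.6 and 22.2 CPM in WT and to between 5.83 and 8.98 CPM in the 9 knockout libraries. Among them Lum was at 0 in all 12 libraries, Postn was at 0 in 8 and Dcn in 6. These marker levels differed between WT and the knockouts, and their part in the results below was not tested. In bulk RNA, fewer cells of a type and less RNA per cell cannot be told apart.

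The 9 genes lie on 6 chromosomes of the mouse genome (GRCm38.p6). Trp53 is at chr11:69580348-69591873, Ccng1 at chr11:40748552-40755309, Mdm2 at chr10:117688875-117710758 and Cdkn1a at chr17:29090979-29100722. Trp53inp1 (chr4:11156441-11174379) and Sesn2 (chr4:132492804-132510456) share a chromosome far apart, as do Bbc3 (chr7:16308398-16318334) and Bax (chr7:45461695-45466903). Phlda3 is at chr1:135766085-135769134. Exons of Cdkn1a share 273 bases with an annotated gene on the opposite strand, and exons of Bax share 192 bases with a gene on the same strand. Neither neighbour has a count of its own here, and the strand setting of the counting is not given in the sources used here, so reads of these stretches cannot be assigned. Trp53 also has a processed pseudogene copy with no count of its own.

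The motif searched for was the p53 decamer consensus, the 10-base palindromic element that p53 binds in adjoining pairs, which reads alike on both strands. RefSeq promoter windows of 300 bases, of which 250 lie before the start site, were available for 8 of the 9 genes, and 5 of the 8 had the decamer in at least 1 of their windows. Of all 32851 windows, 8.36% held it. By symbol the share was 9.55% of 27025 genes, beside 11 of 38 further p53 targets, 4 of 26 p53 regulators and 3 of 18 cell cycle genes that p53 lowers. The decamer began 75 bases before the start of Trp53, 186 before that of Mdm2, 185 before that of Ccng1 and 201 before that of Bax. Cdkn1a held 2 copies, 73 and 51 bases before the first of its 2 annotated starts, and none in the window of the other start. None of the 3 windows of Bbc3 and neither the window of Sesn2 nor that of Phlda3 held it. Trp53inp1 is named only. A match describes letters in a window and is not a measured binding site. The 5 stretches below are shown because they hold letters that fit the p53 consensus, and whether p53 acts through them was not tested; capitals mark the decamer, each stretch is written 5′ to 3′ on the strand of its gene, and its ends extend 35 bases beyond the outermost match.
Trp53, chr11:69580249-69580328, plus strand: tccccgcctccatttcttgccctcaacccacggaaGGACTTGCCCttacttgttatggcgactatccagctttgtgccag
Cdkn1a, chr17:29090871-29090972, plus strand: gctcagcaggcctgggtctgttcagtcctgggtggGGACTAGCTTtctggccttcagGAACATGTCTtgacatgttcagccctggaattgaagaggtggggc
Mdm2, chr10:117710900-117710979, minus strand: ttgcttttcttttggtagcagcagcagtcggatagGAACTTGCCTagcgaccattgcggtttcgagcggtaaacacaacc
Ccng1, chr11:40755427-40755506, minus strand: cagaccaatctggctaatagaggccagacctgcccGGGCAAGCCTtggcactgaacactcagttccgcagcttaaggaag
Bax, chr7:45467055-45467134, minus strand: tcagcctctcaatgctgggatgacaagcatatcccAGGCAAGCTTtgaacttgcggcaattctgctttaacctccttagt

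Compared per kilobase of exon, the level of Bax was the highest of the 9 genes in WT mESCs, at 163 ± 1.32 CPM per kilobase (SD, n = 3), and Trp53 was next at 115 ± 8.80. Ccng1 (43.8 ± 3.79), Sesn2 (39.5 ± 0.784) and Phlda3 (35.7 ± 2.48) formed the middle of the order. Mdm2 (22.9 ± 2.13) and Bbc3 (22.9 ± 2.95) could not be ordered, because their WT libraries overlapped. Trp53inp1 (13.2 ± 0.933) and Cdkn1a (9.64 ± 0.654) were the lowest, and each pair of neighbours in the order other than Mdm2 and Bbc3 was separated in all 3 WT libraries. In the knockouts Cdkn1a stayed last, at 5.03 ± 0.200 CPM per kilobase in Hmgn1-/-, 4.95 ± 0.177 in Hmgn2-/- and 5.41 ± 0.0585 in the double knockout. Sesn2 stood above Ccng1 in each of them, at 41.7 ± 2.74 against 31.3 ± 2.44 CPM per kilobase in Hmgn1-/-, 42.4 ± 4.71 against 30.8 ± 1.94 in Hmgn2-/- and 44.3 ± 2.23 against 35.9 ± 1.55 in the double knockout.

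Trp53, the gene for p53 itself, was abundant in all 4 genotypes. It measured 423, 489 and 479 CPM in WT, 530, 559 and 542 in Hmgn1-/-, 510, 531 and 500 in Hmgn2-/-, and 502, 496 and 510 in the double knockout. Every knockout library was above every WT library, with the lowest level in WT replicate 1 and the highest in Hmgn1-/- replicate 2, a range of 1.32 times. Mdm2 encodes the ligase that marks p53 for degradation and is itself induced by p53, which closes a feedback loop. Its level was 106, 116 and 127 CPM in WT, 93.4, 85.7 and 91.8 in Hmgn1-/-, 110, 96.1 and 89.7 in Hmgn2-/-, and 115, 96.1 and 107 in the double knockout. The Hmgn1-/- libraries were all below the WT libraries, while those of Hmgn2-/- and the double knockout overlapped WT.

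Cdkn1a encodes p21, the inhibitor of cyclin-dependent kinases through which p53 halts cells before S phase, and its promoter stretch above holds 2 decamers. Its level was 36.04, 31.6 and 35.1 CPM in WT, 18.6, 17.7 and 17.2 in Hmgn1-/-, 17.3, 17.1 and 18.3 in Hmgn2-/-, and 19.4, 19.2 and 19.0 in the double knockout. All 9 knockout libraries lay well below the 3 WT libraries, and the double knockout libraries were slightly above those of both single knockouts. Ccng1 encodes cyclin G1, which recruits a phosphatase to MDM2. It measured 146, 147 and 169 CPM in WT, 102, 110 and 119 in Hmgn1-/-, 115, 107 and 102 in Hmgn2-/-, and 128, 120 and 131 in the double knockout. Here too no knockout library reached the lowest WT library, and the double knockout was above both single knockouts.

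Trp53inp1 encodes a stress-induced nuclear protein that aids p53 in arrest and apoptosis and also acts in autophagy. It measured 84.4, 80.0 and 91.9 CPM in WT, 57.4, 67.0 and 60.4 in Hmgn1-/-, 59.9, 50.8 and 41.3 in Hmgn2-/-, and 61.5, 58.3 and 51.3 in the double knockout. All knockout libraries were below WT, with the widest spread in Hmgn2-/-, whose replicate 3 held the lowest level of the 12. Phlda3 encodes a pleckstrin homology domain protein that competes with AKT for membrane lipids. Its level was 52.1, 55.1 and 59.8 CPM in WT, 40.8, 44.4 and 48.7 in Hmgn1-/-, 44.8, 42.3 and 53.5 in Hmgn2-/-, and 44.3, 48.4 and 54.4 in the double knockout. Hmgn1-/- lay below WT, and 1 library each of Hmgn2-/- and the double knockout overlapped it.

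Bax and Bbc3 are the apoptosis genes among the 9: BAX permeabilises the outer mitochondrial membrane, and PUMA, the product of Bbc3, releases BAX from its inhibitors. Bax measured 258, 259 and 255 CPM in WT, 235, 238 and 253 in Hmgn1-/-, 221, 228 and 277 in Hmgn2-/-, and 219, 241 and 252 in the double knockout. Hmgn1-/- and the double knockout were below WT by a narrow margin, and Hmgn2-/- replicate 3 was the highest of all 12. Bbc3 measured 55.7, 43.9 and 46.1 CPM in WT, 46.1, 53.3 and 45.1 in Hmgn1-/-, 50.04, 51.4 and 55.1 in Hmgn2-/-, and 46.8, 49.4 and 47.8 in the double knockout. Its highest and lowest libraries were both WT, and the genotypes overlapped. Sesn2 encodes a sestrin, which restrains mTORC1 signalling and oxidative damage. Its level was 140, 135 and 136 CPM in WT, 155, 137 and 142 in Hmgn1-/-, 165, 144 and 133 in Hmgn2-/-, and 163, 150 and 149 in the double knockout. The double knockout alone was above WT in all libraries, and the 2 single knockouts overlapped WT.

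**Figure D1:**
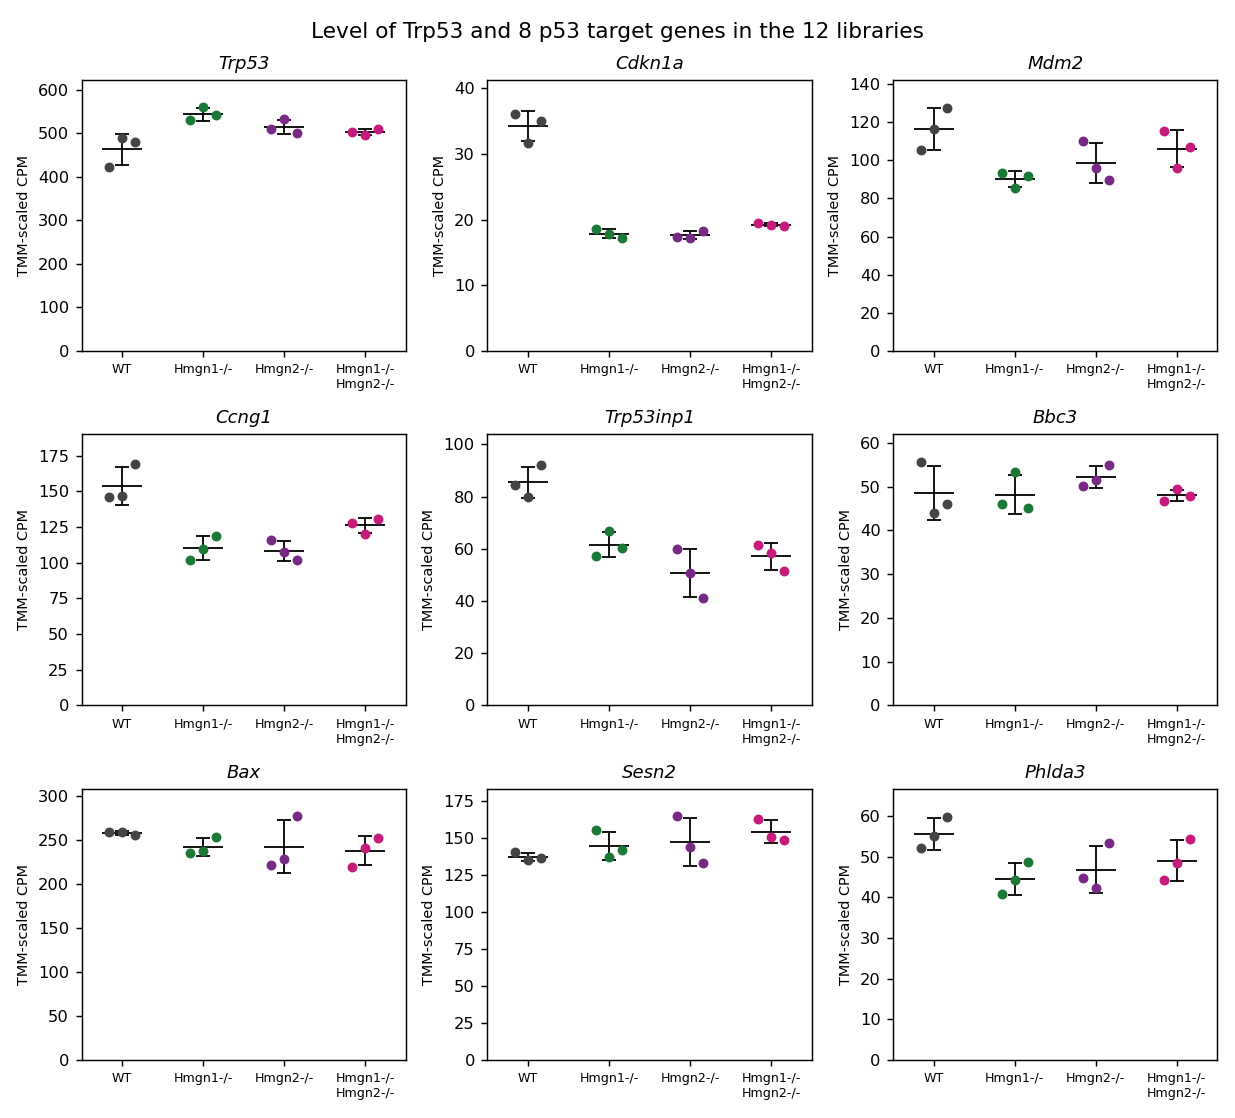
Levels of Trp53 and 8 p53 target genes, each panel showing TMM-scaled CPM on the vertical axis from 0 and the 4 genotypes on the horizontal axis, with a point per library and the mean ± SD (n = 3) in black. The Cdkn1a points lie between 31.6 and 36.04 CPM in WT and between 17.1 and 19.4 CPM in the 9 knockout libraries.

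In Hmgn1-/- mESCs, 5 of the 9 genes were lower than in WT and none was higher (edgeR quasi-likelihood test, called at a Benjamini-Hochberg adjusted p under 0.01 over all 13917 genes tested). Over all those genes 10.1% were called lower and 7.28% higher. Cdkn1a fell most, by 0.95 on the log2 scale (SE 0.0855, 95% confidence interval -1.13 to -0.76), to 0.519 times the WT level (edgeR adjusted p = 2.82e-06, lower in 3 of 3 libraries). Ccng1 fell by 0.49 (SE 0.0729, edgeR adjusted p = 0.000205) and Trp53inp1 fell by 0.48 (SE 0.0741, edgeR adjusted p = 0.000277). Mdm2 fell by 0.37 (SE 0.0707, edgeR adjusted p = 0.00136) and Phlda3 fell by 0.33 (SE 0.0800, edgeR adjusted p = 0.00744). Trp53 had a log2 fold change of 0.23 (SE 0.0604) and missed the threshold at an edgeR adjusted p of 0.0125; DESeq2 called it, as did edgeR without the filter and with the replicate block, and over the alternatives other than leaving out a library its adjusted p ran from 0.0014 to 0.0173. Log2 fold changes were -0.09 for Bax, -0.02 for Bbc3 and 0.07 for Sesn2, each with a confidence interval that includes 0. The call of Mdm2 was lost without Hmgn1-/- replicate 2 (edgeR adjusted p = 0.0108). That of Phlda3 was lost without WT replicate 2 or 3 or Hmgn1-/- replicate 1 or 2 (edgeR adjusted p up to 0.0475), and without Hmgn1-/- replicate 2 the count was 3.

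In Hmgn2-/- mESCs, 3 of the 9 genes were lower than in WT and none was higher by the edgeR test, where 6.66% of all 14047 genes tested were called lower and 3.3% higher. Cdkn1a fell by 0.96 on the log2 scale (SE 0.0969, 95% confidence interval -1.18 to -0.75), to 0.513 times the WT level (edgeR adjusted p = 7.17e-05, lower in 3 of 3 libraries). Trp53inp1 fell by 0.75 (SE 0.121, edgeR adjusted p = 0.00147), and Ccng1 fell by 0.51 (SE 0.0858, edgeR adjusted p = 0.00196). Mdm2 and Phlda3, with log2 fold changes of -0.24 (SE 0.0977) and -0.25 (SE 0.105), missed the threshold at edgeR adjusted p of 0.122 and 0.132. Log2 fold changes were 0.15 for Trp53, 0.10 for Sesn2, 0.10 for Bbc3 and -0.09 for Bax, and the confidence interval of each includes 0. Without WT replicate 3 the calls of Ccng1 and Trp53inp1 were lost (edgeR adjusted p = 0.0111 for Trp53inp1), which left Cdkn1a as the 1 gene called, while the calls over all genes went from 1400 to 733. The call of Ccng1 was also lost without Hmgn2-/- replicate 2 (edgeR adjusted p up to 0.0176 over the libraries left out). Without Hmgn2-/- replicate 3 Phlda3 passed as well, which made 4, beside 1939 of all genes.

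In the double knockout, 3 of the 9 genes were lower than in WT and none was higher by the edgeR test, where 10.2% of all 14128 genes tested were called lower and 7.79% higher. These were the same 3 genes by name, Cdkn1a, Ccng1 and Trp53inp1; the comparisons share the WT libraries. Cdkn1a fell by 0.84 on the log2 scale (SE 0.0825, 95% confidence interval -1.02 to -0.66), to 0.558 times the WT level (edgeR adjusted p = 5.44e-06, lower in 3 of 3 libraries). Trp53inp1 fell by 0.59 (SE 0.0781, edgeR adjusted p = 7.84e-05) and Ccng1 fell by 0.29 (SE 0.0662, edgeR adjusted p = 0.0042). Sesn2, with a log2 fold change of 0.16 (SE 0.0568, higher in 3 of 3 libraries), missed the threshold at an edgeR adjusted p of 0.0458. Log2 fold changes of the rest were 0.11 for Trp53, -0.14 for Mdm2, -0.03 for Bbc3, -0.12 for Bax and -0.19 for Phlda3. The call of Ccng1 was lost without WT replicate 3 or any 1 of the 3 double knockout libraries (edgeR adjusted p up to 0.0325).

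With the limits of the study, an adjusted p under 0.01 and a log2 fold change of at least 1 in size, none of the 9 genes was called in Hmgn1-/-, Hmgn2-/- or the double knockout against WT, beside 5.98%, 5.15% and 6.3% of all genes tested. At an unadjusted p under 0.05, 6, 5 and 5 of the 9 passed in these comparisons by edgeR, beside 38.7%, 31% and 38.9% of all genes. DESeq2 at its adjusted threshold without the fold limit called 6, 3 and 3, beside 18.7%, 13.9% and 19.3% of all genes.

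**Figure D2:**
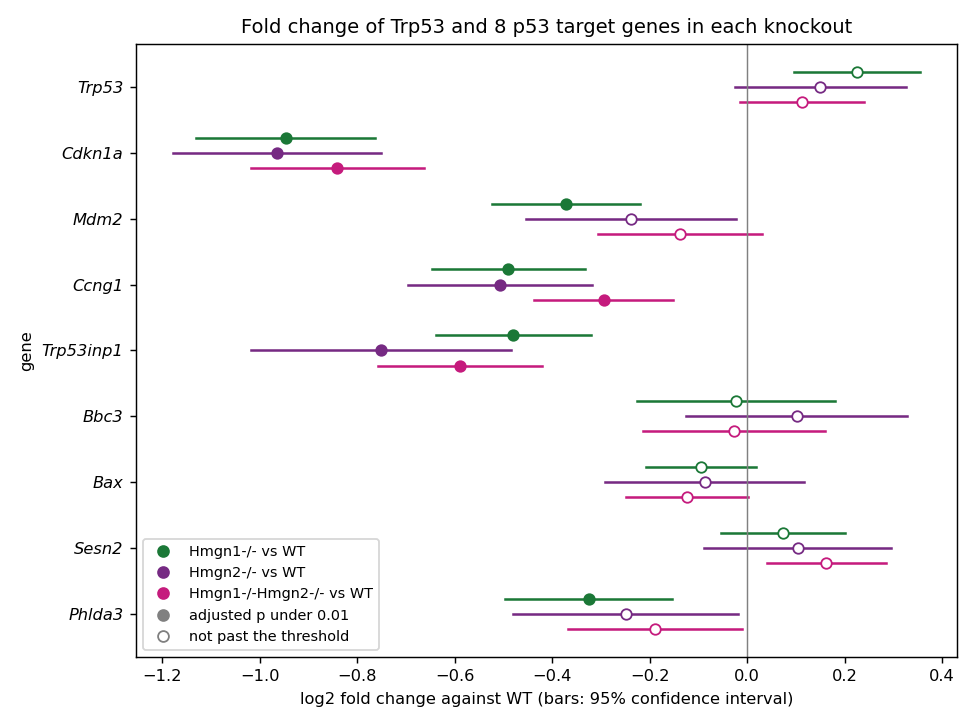
Log2 fold change against WT (horizontal axis) for the 9 genes (vertical axis) in Hmgn1-/-, Hmgn2-/- and the double knockout, with bars for the 95% confidence interval and filled points for an adjusted p under 0.01. Cdkn1a lies at -0.95, -0.96 and -0.84, and Bbc3 at -0.02, 0.10 and -0.03.

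With the mean of the 3 knockout genotypes set against WT, in a fit of 4 groups and 12 libraries, 3 of the 9 genes were lower and none higher by edgeR, where 13.1% of the 14323 genes tested were called lower and 9.14% higher. Cdkn1a fell by 0.92 on the log2 scale (SE 0.0608, edgeR adjusted p = 1.63e-08), Trp53inp1 fell by 0.61 (SE 0.0879, edgeR adjusted p = 5.81e-05) and Ccng1 fell by 0.44 (SE 0.0610, edgeR adjusted p = 4.54e-05), each lower in 9 of 9 knockout libraries. DESeq2 called 4, with Mdm2 in addition, beside 3611 of all genes in place of 3185. Mdm2 was also called by edgeR with upper quartile scaling and without the filter. In the fit used here Mdm2, at -0.26, Phlda3, also at -0.26, and Trp53, at 0.16, had edgeR adjusted p of 0.0121, 0.0215 and 0.0261. All 3 passed without Hmgn2-/- replicate 3, when the count was 6 and the calls over all genes went from 3185 to 3833. They passed with the replicate number as a block too, when the count was also 6 and the calls over all genes were 4008. Mdm2 also passed without replicate 1 of WT, Hmgn2-/- or the double knockout.

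Between knockout lines, which uses no WT library, none of the 9 genes was called by edgeR in the fit used here. With the replicate number as a block, edgeR called 2 between the double knockout and Hmgn1-/-, Mdm2 and Ccng1, beside 408 of all genes in place of 150. Without the block the background was 0.0434% of 13816 genes for the double knockout against Hmgn2-/-, 0.352% of 13648 for Hmgn2-/- against Hmgn1-/- and 1.09% of 13710 for the double knockout against Hmgn1-/-. DESeq2 called 0 in each of the 3 comparisons, beside 0.463%, 0.491% and 1.52% of all genes. An unadjusted edgeR p under 0.05 was found for 1, 1 and 3 of the 9, beside 4.44%, 3.2% and 9.53% of all genes. Ccng1 had a log2 difference of 0.22 (95% confidence interval 0.05 to 0.38) between the double knockout and its Hmgn2-/- parent, with an edgeR adjusted p of 0.785. Trp53inp1 had -0.28 (95% confidence interval -0.55 to -0.0004) between Hmgn2-/- and Hmgn1-/-. Between the double knockout and Hmgn1-/-, Mdm2 had 0.23 (95% confidence interval 0.09 to 0.38), Ccng1 0.20 (0.06 to 0.33) and Trp53 -0.11 (-0.21 to -0.01). For Cdkn1a the log2 differences were 0.13 (95% confidence interval -0.06 to 0.32), -0.02 (-0.23 to 0.19) and 0.11 (-0.07 to 0.29) in these comparisons, intervals that do not show the lines to be alike.

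The effect of losing Hmgn1 in cells with and without Hmgn2 was compared by the departure from additivity, the log2 change in the double knockout minus the sum of the changes in both single knockouts. Of the 9 genes, 2 departed above 0 and none below 0 by edgeR, where 4.13% of all 14323 genes tested were called above 0 and 2.19% below 0. For Cdkn1a the changes of the single knockouts summed to -1.92, the double knockout stood at -0.84, and the departure was 1.08 (SE 0.112, edgeR adjusted p = 1.79e-05). With a log2 departure of at least 1 also required, Cdkn1a remained as 1 of the 9, beside 2.98% of all genes. For Ccng1 the sum was -1.01, the double knockout stood at -0.30, and the departure was 0.71 (SE 0.109, edgeR adjusted p = 0.000469). The markers departed as well by edgeR. Called below 0 were 6 of the 10 primitive endoderm markers and 2 of the 11 mESC markers, and 3 of the 4 fibroblast markers tested were called above 0. Trp53inp1 (sum -1.24, departure 0.65, SE 0.158) and Mdm2 (sum -0.62, departure 0.48, SE 0.127) missed the threshold at edgeR adjusted p of 0.0128 and 0.0198, and DESeq2 called both; edgeR also called Trp53inp1 with upper quartile scaling and without the filter. Without Hmgn2-/- replicate 1 both passed by edgeR as well, which made 4, beside 881 of all genes in place of 905, and Mdm2 also passed without WT replicate 1. With the replicate number as a block Trp53inp1, Mdm2 and Phlda3 passed by edgeR, which made 5, beside 1458 of all genes. Departures were 0.40 for Phlda3, 0.07 for Bax, -0.0054 for Sesn2, -0.10 for Bbc3 and -0.25 for Trp53, with edgeR adjusted p from 0.0695 to 0.986. All single-knockout and double-knockout values in this comparison share the WT libraries. Hmgn1 RNA itself was at 140 CPM in Hmgn1-/- and 21.0 CPM in the double knockout, so what remained of it differed between these lines.

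**Figure D3:**
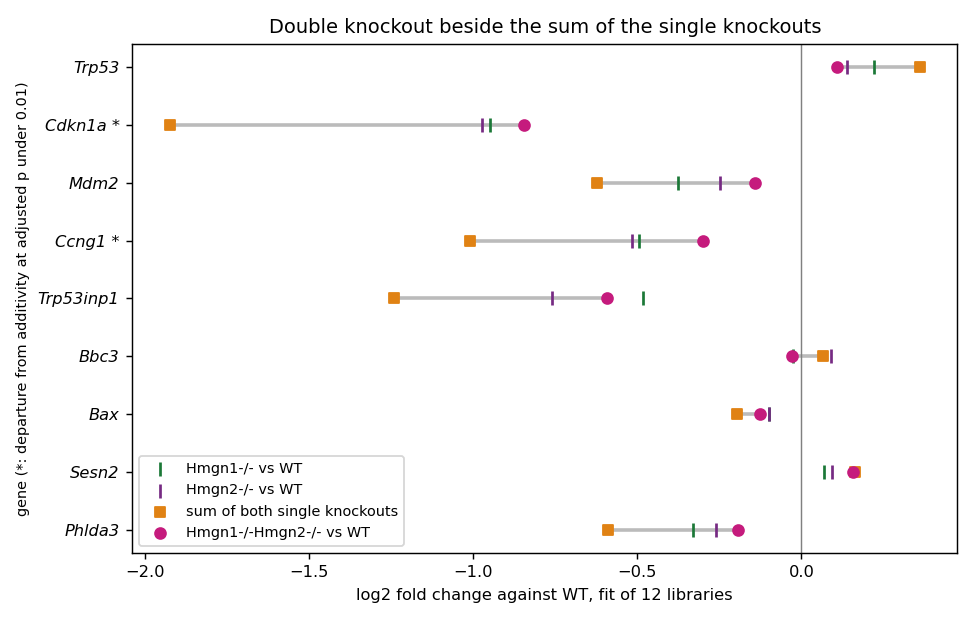
Log2 fold change against WT (horizontal axis) of the 9 genes (vertical axis) in the fit of 12 libraries, with ticks for each single knockout, a square for their sum and a circle for the double knockout. The double knockout of Cdkn1a stands at -0.84, beside a sum of -1.92, and asterisks mark the departures of Cdkn1a and Ccng1, at adjusted p under 0.01.

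The wider p53 network was followed in 3 lists: 46 further targets, 28 regulators of p53 and 24 cell cycle genes that p53 lowers through p21. Of the further targets 44 could be tested; Fas, at 5 counts or fewer, and Cmbl, at 10 or fewer, could not. In Hmgn1-/- 4 of the 44 rose and 8 fell, in Hmgn2-/- 2 rose and 3 fell, and in the double knockout 3 rose and 3 fell. The called genes made up 27.3%, 11.4% and 13.6% of the list, beside 17.3%, 9.97% and 18.0% of all genes tested; the share in Hmgn2-/- is near that of all genes and the share in the double knockout is below it. By DESeq2 the count was 12 in Hmgn1-/-, the same as by edgeR. In Hmgn2-/- it was 9 in place of 5, beside 1954 of all genes in place of 1400. Against WT, the mean of the knockout genotypes was called higher for 6 and lower for 9 by edgeR. These made up 34.1% of the list, beside 22.2% of all genes. The counts of single genotypes depended on single libraries. With 1 left out they ran from 8 (without Hmgn1-/- replicate 1 or 2) to 15 (without WT replicate 1) in Hmgn1-/-, from 1 (without WT replicate 2 or 3) to 7 (without Hmgn2-/- replicate 3) in Hmgn2-/-, and between 4 and 11 in the double knockout, when replicates 3 and 1 of WT were dropped. The calls over all genes moved as well, from 1606 to 3066 in Hmgn1-/-, from 727 to 1939 in Hmgn2-/- and from 1712 to 3029 in the double knockout over the libraries left out. Their median log2 fold changes were -0.05, -0.06 and -0.02, beside -0.33, -0.24 and -0.14 for the 9 genes and 0.0040, 0.013 and 0.0037 for all genes tested. The 9 genes were thus placed lower than the further targets in each comparison, a difference that was not tested. Both sets were chosen with earlier results of these data known, so this difference does not describe p53 targets in general.

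Ephx1, which encodes an epoxide hydrolase, and Plk2, a kinase gene of the polo-like family, fell in all 3 knockouts. Ephx1 measured 6.46, 6.38 and 7.06 CPM in WT, 3.00, 2.39 and 2.80 in Hmgn1-/-, 2.73, 3.03 and 2.497 in Hmgn2-/-, and 2.69, 3.66 and 3.66 in the double knockout. The WT libraries were all above the 9 knockout libraries, and the log2 fold changes were -1.28 (SE 0.160), -1.26 (SE 0.161) and -1.01 (SE 0.162), with edgeR adjusted p of 4.87e-05, 0.000332 and 0.000371. Plk2 fell by 1.11, 0.89 and 0.64 (edgeR adjusted p = 8.34e-05, 0.00213 and 0.00227), from 25.8, 34.7 and 41.1 CPM in WT to between 13.6 and 22.1 CPM in the knockouts. The Plk2 call in Hmgn2-/- was lost without WT replicate 2 or 3, and that in the double knockout without WT replicate 3 or any 1 of its own libraries (edgeR adjusted p up to 0.0138).

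Pml, which encodes the scaffold of nuclear bodies where p53 is modified, and Dram1, a lysosomal gene of autophagy, rose in all 3 knockouts. Pml measured 195, 231 and 214 CPM in WT and between 254 and 353 CPM in the knockouts, with log2 fold changes of 0.56, 0.46 and 0.51 (edgeR adjusted p = 0.000136, 0.00753 and 7.56e-05). Dram1 was scarce, with between 7 and 100 counts a library, and measured 0.437, 0.392 and 0.588 CPM in WT, 1.19, 1.05 and 1.15 in Hmgn1-/-, 1.62, 1.29 and 1.37 in Hmgn2-/-, and 3.20, 3.43 and 3.20 in the double knockout. No knockout library was as low as any WT library, and the log2 fold changes were 1.23 (SE 0.315), 1.56 (SE 0.297) and 2.75 (SE 0.254), with edgeR adjusted p of 0.00968, 0.00391 and 3.17e-06. With 10 counts required in every library Dram1 could not be tested against WT, so these calls have no value under that alternative. The Dram1 call in Hmgn1-/- was lost without any 1 of the 6 libraries (edgeR adjusted p from 0.0172 to 0.0399). The Hmgn2-/- calls of Dram1 and of Pml were each lost without any 1 of the WT libraries or Hmgn2-/- replicate 1 or 2 (edgeR adjusted p up to 0.0218 and 0.0440). The Pml call in Hmgn2-/- was also lost with the replicate block and with 10 counts required in every library (edgeR adjusted p up to 0.0121), and the Dram1 call in Hmgn1-/- was lost by DESeq2 (adjusted p = 0.0387), with upper quartile scaling and without the filter.

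Btg2, an antiproliferative gene, fell by 0.67 in Hmgn1-/- (SE 0.0993, edgeR adjusted p = 0.000206) and by 0.49 in Hmgn2-/- (SE 0.103, edgeR adjusted p = 0.00672), and had -0.31 in the double knockout (edgeR adjusted p = 0.0196). Rap2b, a small GTPase gene, fell by 0.53 in Hmgn1-/- and by 0.45 in the double knockout (edgeR adjusted p = 0.000778 and 0.00161), with -0.44 in Hmgn2-/- (edgeR adjusted p = 0.0112). The Btg2 call in Hmgn2-/- was lost without any 1 of the WT libraries or Hmgn2-/- replicate 1 or 2, and the Rap2b call in the double knockout without WT replicate 3 (edgeR adjusted p up to 0.0475 and 0.0113). Epha2, a receptor tyrosine kinase gene, was called in the double knockout, where it rose, with a log2 fold change of 0.50 (SE 0.0835, edgeR adjusted p = 0.00046). It stood at 0.31 in Hmgn1-/- and 0.42 in Hmgn2-/- (edgeR adjusted p = 0.0103 and 0.0271), with no overlap with WT in either. DESeq2 called Epha2 in both. Eda2r, named after its value was seen, stood at -0.34 in Hmgn1-/- and -0.46 in Hmgn2-/- (edgeR adjusted p = 0.0117 and 0.0212). DESeq2 called Eda2r in both as well. The remaining edgeR calls among the further targets in the comparisons of single genotypes with WT were in Hmgn1-/-. Ddit4l (-0.81), Tap1 (-0.80), Perp (-0.76) and Dcxr (-0.66) fell, and Ddb2 (0.62) and Gls2 (0.36) rose, with edgeR adjusted p from 0.000994 to 0.00706; Gls2 was named after its value was seen. In Hmgn2-/- and the double knockout edgeR did not call these genes. There Ddit4l stood at -0.61 and -0.43, Tap1 at -0.55 and -0.02 and Perp at -0.57 in both. Dcxr stood at -0.25 and -0.04, Ddb2 at 0.44 and 0.42 and Gls2 at 0.36 and 0.21. With the mean of the knockout genotypes set against WT, Ddit4l, Tap1, Perp, Dcxr and Ddb2 were called by edgeR, where 22.2% of all genes were called. The libraries of Tap1, Perp and Dcxr overlapped WT there. Tap1 and Dcxr were each lower than the WT mean in 8 of 9 knockout libraries. The Perp call was lost without Hmgn1-/- replicate 1 or 2, and the Ddb2 call without WT replicate 2 or 3 or any 1 of the Hmgn1-/- libraries (edgeR adjusted p up to 0.0219 and 0.0310). DESeq2 did not call Perp in Hmgn1-/- (adjusted p = 0.0120) but called it in Hmgn2-/-. The Gls2 call was lost without WT replicate 2 or 3 or any 1 of the Hmgn1-/- libraries.

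Between knockouts, Dram1, Tap1 and Dcxr were higher in the double knockout than in Hmgn1-/-, by a log2 difference of 1.53 (SE 0.202), 0.77 (SE 0.138) and 0.62 (SE 0.118), with edgeR adjusted p of 0.000367, 0.006 and 0.00934. Tap1, a peptide transporter gene, measured 6.03, 6.88 and 7.03 CPM in WT, 3.53, 4.01 and 3.95 in Hmgn1-/-, 4.31, 5.19 and 4.04 in Hmgn2-/-, and 6.25, 6.998 and 6.41 in the double knockout. The double knockout libraries thus lay among those of WT and above all 6 single knockout libraries. Departures from additivity above 0 were called for 5 further targets and below 0 for none by edgeR, 11.4% of the list beside 6.32% of all genes. Called or not, 29 of the 44 had a departure above 0, beside 7026 of all 14323 genes. The 5 called were Ephx1 (1.54), Plk2 (1.37), Tap1 (1.33), Dcxr (0.88) and Btg2 (0.86), with edgeR adjusted p from 0.000318 to 0.00128.

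**Figure D4:**
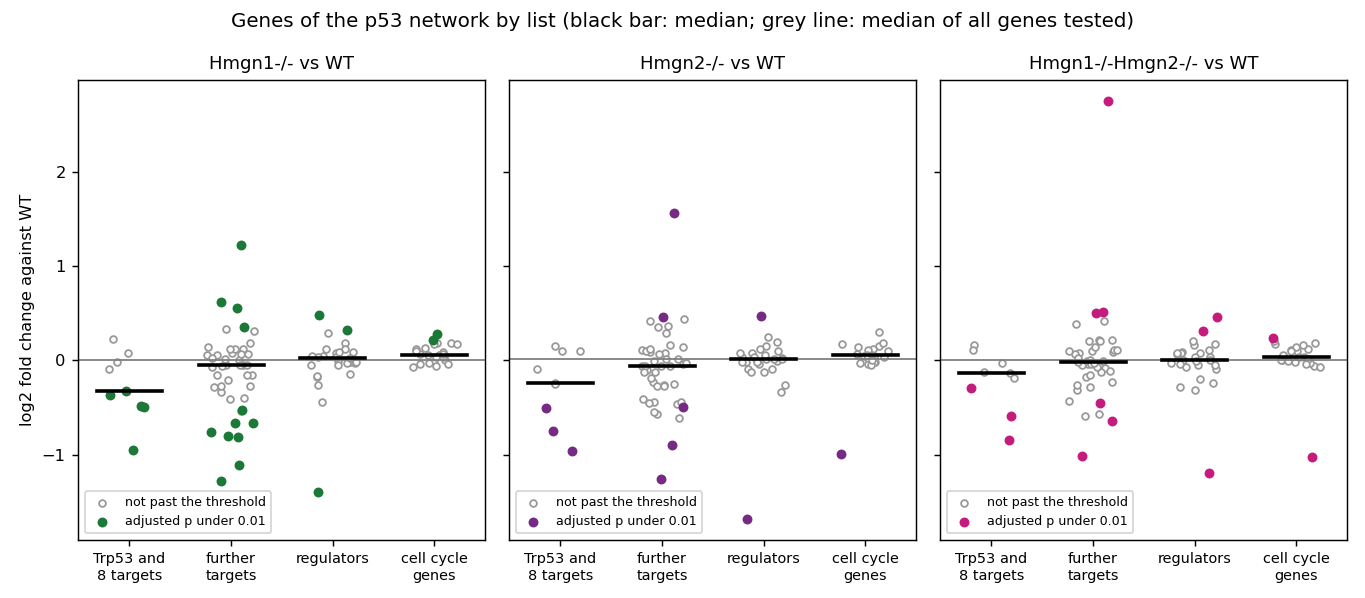
Log2 fold change against WT (vertical axis) of every tested gene of 4 lists (horizontal axis) in 3 panels for Hmgn1-/-, Hmgn2-/- and the double knockout, with coloured points for an adjusted p under 0.01, black bars for list medians and a grey line for the median of all genes. The medians of Trp53 and its 8 targets are -0.33, -0.24 and -0.14, and those of the further targets -0.05, -0.06 and -0.02.

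Among the regulators, 27 of 28 could be tested; Trp63, a p53 family gene, had 3 counts or fewer in every library. In Hmgn1-/- 2 rose and 1 fell, in Hmgn2-/- 1 rose and 1 fell, and in the double knockout 2 rose and 1 fell. The called genes made up 11.1%, 7.41% and 11.1% of the list, below the share of all genes in each comparison, and with 1 library left out their counts ran from 3 to 5, 1 to 3 and 2 to 4. Usp10, whose product removes ubiquitin from p53, rose in all 3. It measured 279, 304 and 295 CPM in WT, 416, 422 and 391 in Hmgn1-/-, 419, 418 and 375 in Hmgn2-/-, and 416, 399 and 398 in the double knockout. All 9 knockout libraries were above WT, with log2 fold changes of 0.48, 0.47 and 0.46 (edgeR adjusted p = 2.52e-05, 0.00169 and 2.39e-05). The Usp10 call in Hmgn2-/- was lost without WT replicate 3 or Hmgn2-/- replicate 2 (edgeR adjusted p up to 0.0155). Sirt1, the gene of a deacetylase that acts on p53, rose by a log2 fold change of 0.33 in Hmgn1-/- and 0.31 in the double knockout (edgeR adjusted p = 0.000909 and 0.00385), with 0.19 in Hmgn2-/- (edgeR adjusted p = 0.17). Its call in the double knockout was lost without WT replicate 3 or double knockout replicate 1 (edgeR adjusted p up to 0.0182). In the fit of 12 libraries both Sirt1 calls were lost (edgeR adjusted p = 0.0103 and 0.0143). Against WT, the mean of the knockout genotypes was called higher for Sirt1 (log2 fold change 0.27, edgeR adjusted p = 0.00692), and its libraries overlapped WT. In that comparison 2 regulators rose and 3 fell, 18.5% of the list beside 22.2% of all genes.

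Trp73, the gene of the p53 relative p73, fell in all 3 knockouts. It measured 6.78, 8.84 and 9.28 CPM in WT, 2.77, 3.25 and 3.45 in Hmgn1-/-, 3.04, 2.80 and 1.72 in Hmgn2-/-, and 3.27, 2.98 and 4.58 in the double knockout. No knockout library reached the lowest WT library. The log2 fold changes were -1.40 (SE 0.170), -1.68 (SE 0.214) and -1.20 (SE 0.182), with edgeR adjusted p of 3.79e-05, 0.000328 and 0.000234. Trp73 (1.89) and Usp10 (-0.48) were the regulators with a called departure from additivity (edgeR adjusted p = 0.000658 and 0.00189). The other 24, 25 and 24 regulators tested in Hmgn1-/-, Hmgn2-/- and the double knockout, Mdm4, Atm, Chek2 and Cdkn2a among them, were not called. In Hmgn1-/- Cdkn2a (-0.44) and Chek2 (0.29) missed the threshold at edgeR adjusted p of 0.0108 and 0.0179. DESeq2 and edgeR with upper quartile scaling called Cdkn2a there. Without the filter, with the replicate block or without WT replicate 1, edgeR called both.

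Of the 24 cell cycle genes, all of which could be tested, 2 rose and none fell in Hmgn1-/-, 1 fell and none rose in Hmgn2-/-, and 1 rose and 1 fell in the double knockout. The called genes made up 8.33%, 4.17% and 8.33% of the list, again below the share of all genes, and with 1 library left out their counts ran from 0 to 1, 1 to 2 and 1 to 2. Their median log2 fold changes were 0.06, 0.05 and 0.04. Mcm5, a subunit of the replicative helicase, rose in Hmgn1-/- and the double knockout (log2 fold change 0.28 and 0.24, edgeR adjusted p = 0.000815 and 0.00284), with 0.30 in Hmgn2-/- (edgeR adjusted p = 0.02, no overlap with WT), and the mitotic kinase gene Plk1 rose in Hmgn1-/- (0.22, edgeR adjusted p = 0.00733). These calls depended on single libraries: Plk1 was lost without any 1 of the 6 libraries, Mcm5 in Hmgn1-/- without WT replicate 3 and in the double knockout without WT replicate 3 or double knockout replicate 2 or 3 (edgeR adjusted p up to 0.0513, 0.01002 and 0.0316). Plk1 was also lost in the fit of 12 libraries and with 10 counts required in every library (edgeR adjusted p up to 0.0117). Against WT, the mean of the knockout genotypes was called higher by edgeR for Mcm5 and Plk1, with no overlap with WT. The log2 fold changes were 0.27 and 0.20 (edgeR adjusted p = 0.000483 and 0.00447). In that comparison 2 of the list rose and 1 fell, 12.5% of it beside 22.2% of all genes. Birc5, which encodes survivin, measured 151, 147 and 147 CPM in WT, 147, 139 and 156 in Hmgn1-/-, 67.5, 69.2 and 87.2 in Hmgn2-/-, and 68.9, 77.7 and 72.4 in the double knockout. It was low in the Hmgn2-/- line and in the double knockout derived from it, while Hmgn1-/- overlapped WT. Birc5 fell by 0.99 in Hmgn2-/- (SE 0.102, edgeR adjusted p = 8.18e-05) and by 1.03 in the double knockout (SE 0.0615, edgeR adjusted p = 4.56e-08), and stood at -0.02 in Hmgn1-/-. Both were lower than Hmgn1-/- by edgeR, Hmgn2-/- with a log2 difference of -0.98 (SE 0.104, adjusted p = 0.000875) and the double knockout with -1.01 (SE 0.0650, adjusted p = 1.79e-07).

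**Figure D5:**
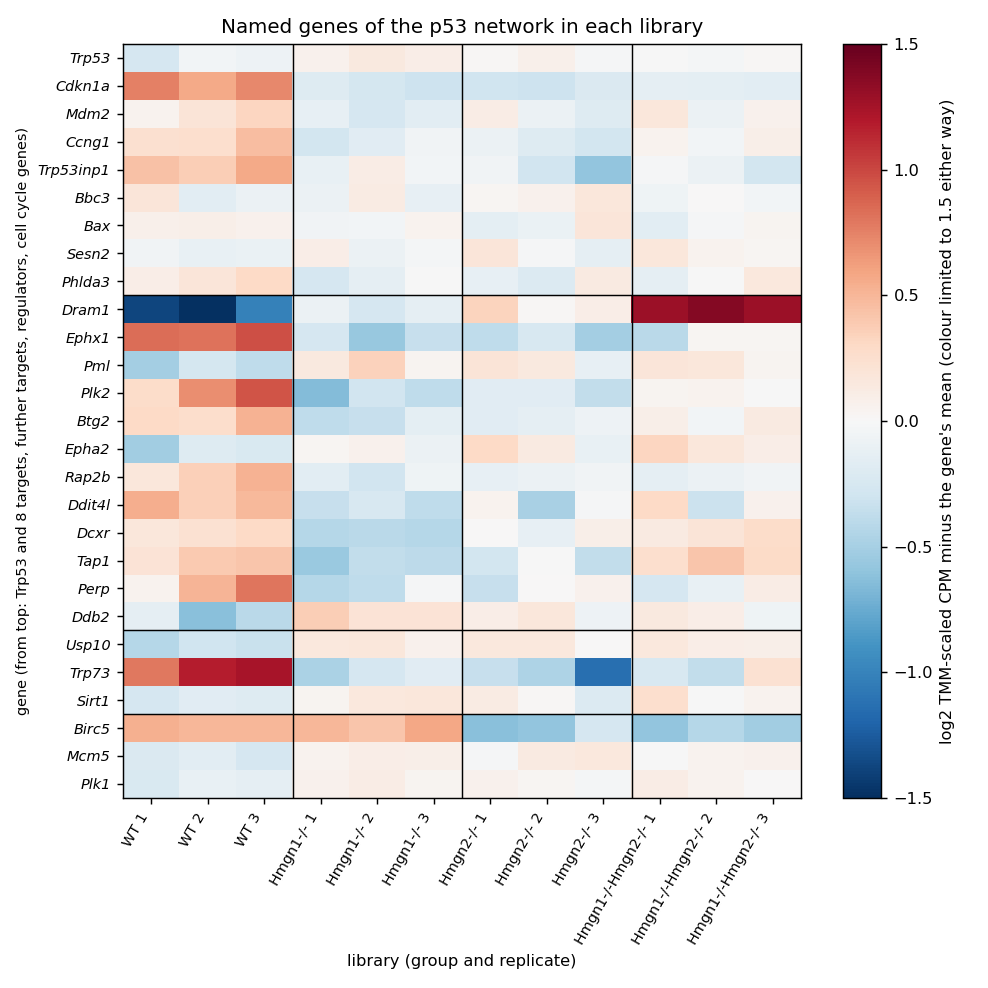
Heat map of log2 TMM-scaled CPM minus the mean of each gene, with Trp53, its 8 targets and the named genes of the 3 lists on the vertical axis, the 12 libraries on the horizontal axis and colours limited to 1.5 either way. Birc5 is low in the 6 libraries of Hmgn2-/- and the double knockout (67.5 to 87.2 CPM), while Cdkn1a is low in all 9 knockout libraries (17.1 to 19.4 CPM).

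The genes whose pattern over the 12 libraries was most like that of Cdkn1a, by root mean square difference of centred log2 CPM among 11555 genes, were Prrc1 (0.101), Pgs1 (0.108), Ets2 (0.116), Fbln1 (0.117) and Atp6ap2 (0.118). Prrc1 measured 51.9 CPM on average in WT and 25.6, 24.3 and 26.2 in Hmgn1-/-, Hmgn2-/- and the double knockout. Among the 9 genes, Trp53inp1 ranked 274 and Ccng1 349 in likeness to Cdkn1a, and Trp53 ranked 8445. The genes most like Trp53 were Fiz1 (0.0364), D230025D16Rik (0.0367), Zfp219 (0.0373), Fscn1 (0.0393) and Kat2a (0.0426). Fiz1 measured 173 CPM on average in WT and 200.2, 193 and 187 in the knockouts in the same order.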

How the data were processed

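The authors deposited whole-number read counts per gene for 12 poly-A RNA-Seq libraries, made from paired-end reads aligned to mm10 with STAR. The counting tool, annotation and strand setting are not given in the sources used here. From these counts, TMM factors (0.970 to 1.02), CPM and quasi-likelihood tests were computed with edgeR 4.0.16 (limma 3.58.1) in R 4.3.3, after filterByExpr with a minimum count of 10 and Benjamini-Hochberg adjustment over all genes tested. Each pair of genotypes was fitted on its 6 libraries, and the comparison of all knockouts and the departure from additivity on all 12. DESeq2 1.42.0, other scalings, filters and thresholds, a replicate block and leaving out each library were run as alternatives. The fitting code was tested on simulated data. Members and lists were chosen with earlier results of these data known. From each list the called genes with the smallest adjusted p in any comparison with WT were named, at most 12, 8 and 4 for further targets, regulators and cell cycle genes, with genes at 3 counts or fewer in every library. Likeness used a prior count of 2 and required 50 counts on average. Pidd1, Tigar, Cop1 and Kmt5a were read under older symbols. Replicates differed beyond sampling noise (chi-square per gene from 3.40 to 36.4), most for Hmgn2-/- replicate 3, at 36.4 and 20.6 against the other Hmgn2-/- libraries and at most 12.1 for all other pairs. Same-numbered libraries of different genotypes had correlated deviations in all 18 pairs (r from 0.0169 to 0.301), with the pairing taken from the replicate numbers in the labels. For WT and the double knockout r was 0.167, 0.118 and 0.1003. The tests used here did not include the replicate number, which entered only the alternative with a block.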

Additional observations from a re-analysis of the deposited data

Results flagged for a closer look

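The effect of losing Hmgn1 differed between cells with and without Hmgn2 for 2 of the 9 genes, by the edgeR test of the departure from additivity. Both lay above 0, where 4.13% of all genes tested were called, beside 2.19% below 0. For Cdkn1a the log2 departure was 1.08, with 95% confidence interval 0.84 to 1.32. With Hmgn2 present the change was -0.95, from WT to Hmgn1-/-, and in its absence it was 0.13, from Hmgn2-/- to the double knockout. For Ccng1 the log2 departure was 0.71, with 95% confidence interval 0.48 to 0.94, from changes of -0.49 and 0.22 in the same order. Hmgn1 RNA itself departed by -2.63 (edgeR adjusted p = 4.25e-10), with 140 CPM left in Hmgn1-/- and 21.0 CPM in the double knockout. Each genotype is 1 clone and the double knockout was derived from the Hmgn2-/- line, so genotype and clone cannot be told apart.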

How the results depend on the processing

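Apart from the fold limit, Cdkn1a kept its call and direction under every alternative run. This held in all 3 comparisons with WT, in the comparison of all knockouts and in the departure from additivity. The fold limit removed it from the 3 comparisons with WT and from that of all knockouts, and not from the departure. Under the limits of the study the counts of the 9 genes were 0 in the 3 comparisons with WT and in that of all knockouts. The count was 1 for the departure from additivity. Over all genes these limits called 832 in Hmgn1-/-, 724 in Hmgn2-/-, 890 in the double knockout, 981 in all knockouts and 499 for the departure. At an adjusted p under 0.05 the counts of the 9 genes were 6 for all knockouts and 4 for the departure, where the calls over all genes were 4772 and 1892. DESeq2 gave 4 for both, where it called 3611 and 1359 of all genes. With the replicate number as a block they were 6 for Hmgn1-/- against WT (Trp53 in addition), 2 for the double knockout against Hmgn1-/- (Mdm2 and Ccng1), 6 for all knockouts and 5 for the departure. Over all genes the block raised the calls as well, from 2412 to 3396, 150 to 408, 3185 to 4008 and 905 to 1458 in the same order. In these comparisons the libraries share a number, and not every same-number correlation was over 0.1. All 18 same-number correlations were above 0 and 12 were over 0.1, beside at most 0.0623 for different numbers, and not every library correlated best with its own number. The block changed no call of the 9 genes in the double knockout against WT. With 1 library left out the counts ran from 3 to 5 in Hmgn1-/-, 1 to 4 in Hmgn2-/-, 2 to 3 in the double knockout, 3 to 6 for all knockouts and 2 to 4 for the departure, and those of all genes from 1606 to 3066, 727 to 1939, 1712 to 3029, 2096 to 3833 and 582 to 1095. Phlda3 lost its Hmgn1-/- call in the fit of 12 libraries (edgeR adjusted p = 0.0265). The cause of these changes was not tested.

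The values that changed sign were small and none was called. Bax between Hmgn2-/- and Hmgn1-/- was -0.0013 without the filter and -0.0030 with the block. Upper quartile scaling gave 0.0037 for Bbc3 between the double knockout and Hmgn1-/- and 0.0068 for the Sesn2 departure, which was 0.0034 with 10 counts required in every library. With 1 library left out, Bbc3 ran from -0.10 to 0.083 in Hmgn1-/- and -0.090 to 0.079 in the double knockout against WT, -0.049 to 0.12 in all knockouts and -0.050 to 0.072 between the double knockout and Hmgn1-/-. Bax ran from -0.092 to 0.075 between the double knockout and Hmgn2-/-, -0.070 to 0.025 between it and Hmgn1-/-, and -0.11 to 0.064 between Hmgn2-/- and Hmgn1-/-. Sesn2 ran from -0.0052 to 0.15 between the double knockout and Hmgn2-/-, -0.062 to 0.093 between Hmgn2-/- and Hmgn1-/-, and -0.075 to 0.082 for its departure. Phlda3 ran from -0.014 to 0.17 between the double knockout and Hmgn2-/- and -0.033 to 0.14 between Hmgn2-/- and Hmgn1-/-, where Cdkn1a ran from -0.053 to 0.0048 and Ccng1 from -0.081 to 0.037. With library totals in place of TMM, 35 of the 36 mean levels moved by less than 1 SD.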

Other observations

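Genes related to the p53 targets by family were read after the levels of the targets had been seen. Bid, whose product activates BAX, measured 55.4, 52.6 and 55.4 CPM in WT, 71.2, 74.8 and 80.4 in Hmgn1-/-, 69.5, 68.0 and 73.5 in Hmgn2-/-, and 67.7, 73.8 and 75.7 in the double knockout. All 9 knockout libraries were above WT, with log2 fold changes of 0.46, 0.37 and 0.40 (edgeR adjusted p = 0.000143, 0.00753 and 0.000439). Phlda2, an imprinted relative of Phlda3, measured 102, 102 and 101 CPM in WT and between 120 and 148 CPM in the knockouts, and rose in all 3 (log2 fold change 0.40, 0.37 and 0.28, edgeR adjusted p = 0.000482, 0.00884 and 0.00177). Cdkn1c, which encodes the imprinted p57 inhibitor of cyclin-dependent kinases, fell by 0.60 in Hmgn1-/- (edgeR adjusted p = 0.000373), from 82.1, 105 and 97.9 CPM in WT to 54.9, 69.4 and 64.1. In Hmgn2-/- and the double knockout it stood at -0.24 and -0.18 and was not called. Trp53inp2, the paralogue of Trp53inp1, rose in Hmgn1-/- (log2 fold change 0.69, edgeR adjusted p = 0.000196), while Trp53inp1 fell there. In Hmgn2-/- and the double knockout, where Trp53inp1 also fell, Trp53inp2 stood at -0.04 and 0.13 and was not called. Cdkn1b, Ccng2, Bak1, Sesn3 and Phlda1 were not called in Hmgn1-/-, Hmgn2-/- or the double knockout against WT. With the mean of the knockout genotypes set against WT, Cdkn1b and Bak1 rose (log2 fold change 0.37 and 0.17, edgeR adjusted p = 0.00916 and 0.00972), and the Cdkn1b libraries overlapped WT. In the same comparison Cdkn1c fell (log2 fold change -0.35, edgeR adjusted p = 0.00235), and its libraries overlapped WT. Departures from additivity were called for Cdkn1c (0.67), Bid (-0.42) and Phlda2 (-0.49), with edgeR adjusted p of 0.00405, 0.00946 and 0.00578, beside 6.32% of all genes. Ccng2 varied between replicates, at 14.9, 4.09 and 5.16 CPM in WT and between 3.57 and 12.01 CPM in the knockouts.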
